A study of Mus musculus with 6 samples.

Results

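This account concerns 10 genes for antiviral effectors: the Mx GTPase genes Mx1 and Mx2, the viperin gene Rsad2 and its neighbour Cmpk2, the tetherin gene Bst2, the interferon-induced transmembrane protein genes Ifitm1, Ifitm2 and Ifitm3, and Ifi44 and Xaf1. They were taken by gene symbol from a table of 23842 genes, and all 10 were found in it. Total RNA of mouse embryonic fibroblasts, which are mesenchymal cells cultured from minced embryos, was sequenced, all from C57BL/6 mice. The design set 3 libraries labelled NGLY1-/- against 3 libraries of wild-type (WT) cells and asked what changes when NGLY1, the cytosolic enzyme that strips N-linked glycans from misfolded glycoproteins, is missing. All cells were cultured in high-glucose medium with serum, and none was treated. The labels do not give the embryos' age, which part of the gene was deleted, or whether the libraries of a group came from separate embryos or dishes, so the p-values rest on a spread between libraries that may be only technical.

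These effectors belong to the response to type I interferon. Interferon binding to its receptor activates the kinases JAK1 and TYK2. A complex of transcription factors that holds STAT2 and IRF9 then enters the nucleus and binds interferon-stimulated response elements, repeats of GAAA that lie near the starts of the responding genes. The effectors act at different steps of infection: IFITM proteins hinder the fusion of incoming viruses with endosomal membranes, Mx proteins trap viral nucleoproteins, viperin makes a nucleotide that stops viral polymerases, and tetherin holds budding particles at the cell surface. Standard laboratory strains, C57BL/6 among them, are known to carry defective Mx1 and Mx2 alleles, so transcript levels of these genes do not stand for active protein in this strain.

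Total counts were 33007239 to 37841558 in the knockout libraries and 27323577 to 37790710 in the WT libraries. Ngly1 itself had 618, 420 and 457 counts in the knockout libraries and 668, 632 and 307 counts in the WT libraries (adjusted p = 0.99), so these whole-gene counts leave the genotype unchecked, and the labels alone give the direction of each difference. Of 15039 genes tested, 30.7% were called higher and 30.2% lower in knockout cells at a false discovery rate of 0.05 in edgeR's quasi-likelihood test. A single call is therefore common in this comparison. Of 8 fibroblast markers, all present, 1 was higher and 5 were lower, with a median log2 fold change of -0.58. Fn1 averaged 7151 CPM (counts scaled to the size of the library) in knockout and 2092 CPM in WT cells, and Vim averaged 677 CPM in knockout and 1741 CPM in WT cells. Thy1, Pdgfrb and Pdgfra had log2 fold changes of -1.64, -0.78 and -0.97, all past the threshold, and Col1a1 averaged 1118 CPM in knockout and 1183 CPM in WT cells (adjusted p = 0.557). The 12 leukocyte markers summed to 8.88 to 10.1 CPM in the knockout libraries and 5.27 to 8.50 CPM in the WT libraries, with 3 of the 12 not in the table. Cd14 alone averaged 6.95 CPM in knockout and 4.29 CPM in WT cells (adjusted p = 0.015). Ptprc, the pan-leukocyte gene, had 0 counts in each knockout library and 3, 0 and 0 counts in the WT libraries. Siglech, a marker of the plasmacytoid dendritic cells that make much tetherin, had 0 counts in each knockout library and 1, 0 and 0 counts in the WT libraries. Of 6 epithelial markers, 3 were tested, all at low levels. Krt8 averaged 0.0403 CPM in knockout and 0.963 CPM in WT cells, and Cdh1 0.243 and 0.700 CPM, both called lower. Krt18 was not called (adjusted p = 0.695). Of 6 endothelial markers, 2 were tested. Kdr averaged 2.19 CPM in knockout and 1.14 CPM in WT cells (adjusted p = 0.0148), and Tek was not called (adjusted p = 0.0692). In bulk RNA, more cells that express a gene and more RNA per cell cannot be told apart.

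Of the 10 genes, 9 had enough counts to be tested. Of these, 8 were higher in the knockout libraries, 0 were lower, and Ifitm2 did not pass. The median log2 fold change of the 9 was 5.10, against -0.04 over all genes tested. In the same 8 genes every knockout library lay above every WT library, which was the case for 33.8% of all tested genes. The 10 genes together summed to 1847 ± 106 CPM in knockout and 183 ± 34.8 CPM in WT cells (SD, n = 3 each). They took 0.165% to 0.187% of all counts in the knockout libraries and 0.0143% to 0.0223% in the WT libraries. WT replicate 3 was the lowest of its group for 8 of the 10 genes, while it was the lowest for 42.5% of all tested genes. Without it, the 8 genes were still called higher.

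**Figure D1:**
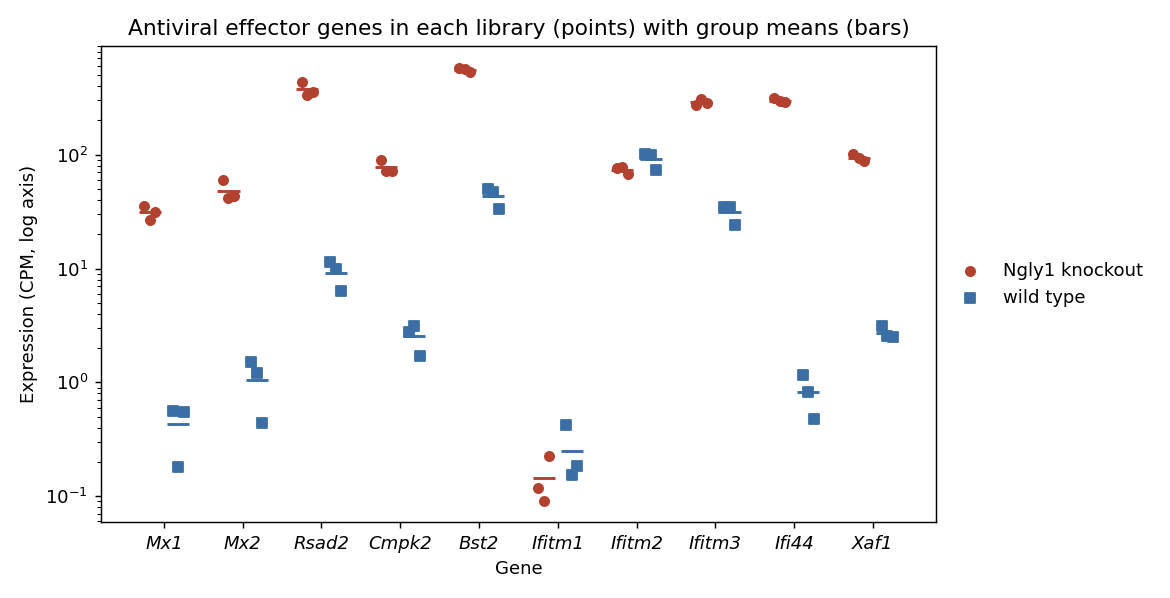
Expression of the 10 genes in each library in CPM on a log axis, with knockout libraries as circles, WT libraries as squares and group means as short bars. For 8 genes the knockout libraries lie well above the WT libraries, Ifitm2 overlaps, and Ifitm1 stays below 1 CPM in all libraries.

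Promoters are shown first, as the RefSeq table of GRCm38.p6 gives them, 5′ to 3′ on the gene's strand. Each runs from 150 bases before to 30 bases after the annotated start. Only the 6 promoters with a response element match, by the searches described below, are printed. Those of Cmpk2 and Ifitm1, which held no match, are not. Of the 10 genes, 8 had a promoter in that table, and Mx1 and Mx2 are named only. Capitals mark the core of the response element on either strand, which is GAAA, any 2 bases and GAAA again. Where it was missing, capitals mark a longer form, the core followed by CT, with at most 1 mismatch at its fixed letters, a search chosen after the sequences were seen. Overlapping matches run together.
Ifitm3 (chr7:141010715-141010894, minus strand): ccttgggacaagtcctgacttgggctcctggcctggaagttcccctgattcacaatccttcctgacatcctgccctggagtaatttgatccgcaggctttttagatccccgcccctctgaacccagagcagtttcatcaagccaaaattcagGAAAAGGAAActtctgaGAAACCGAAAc
Ifitm2 (chr7:140955932-140956111, minus strand): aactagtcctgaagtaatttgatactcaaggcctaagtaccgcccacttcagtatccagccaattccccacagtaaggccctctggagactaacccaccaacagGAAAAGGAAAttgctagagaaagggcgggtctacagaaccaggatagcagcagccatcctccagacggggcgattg
Bst2 (chr8:71537443-71537622, minus strand): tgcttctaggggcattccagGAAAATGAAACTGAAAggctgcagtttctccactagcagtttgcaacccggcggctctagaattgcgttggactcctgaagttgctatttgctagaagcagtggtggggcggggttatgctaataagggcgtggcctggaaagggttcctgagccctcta
Rsad2 (chr12:26456423-26456602, minus strand): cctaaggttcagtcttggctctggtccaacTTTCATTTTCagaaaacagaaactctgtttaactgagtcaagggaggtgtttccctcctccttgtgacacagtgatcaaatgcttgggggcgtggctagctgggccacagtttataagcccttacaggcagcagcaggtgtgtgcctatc
Ifi44 (chr3:151749881-151750060, minus strand): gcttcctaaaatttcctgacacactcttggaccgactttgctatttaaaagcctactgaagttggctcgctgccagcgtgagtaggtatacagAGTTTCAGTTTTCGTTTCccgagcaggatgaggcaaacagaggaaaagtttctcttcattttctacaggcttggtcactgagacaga
Xaf1 (chr11:72301479-72301658, plus strand): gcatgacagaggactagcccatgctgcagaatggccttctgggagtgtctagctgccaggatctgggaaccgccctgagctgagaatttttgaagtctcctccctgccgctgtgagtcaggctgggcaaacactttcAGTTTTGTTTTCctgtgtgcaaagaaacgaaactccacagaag

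Within the full window of 250 bases before to 50 after the start, the core was found in 4 of the 8 promoters, those of Ifitm3, Ifitm2, Bst2 and Rsad2. It was found in 3.44% of all 32851 promoter windows of the table, and for 3.99% of its 27025 genes. The exact longer form was found in Ifitm3 and Bst2, in 0.271% of all windows and for 0.303% of all genes. With at most 1 mismatch, 6 of the 8 promoters held it, against 3.71% of all windows and 4.30% of all genes. Ifitm3 held the longer form at 2 places, starting 3 and 20 bases into the transcript. The single core of Ifitm2 began 46 bases before the start and matched the longer form with 1 mismatch. The RefSeq gene of Ifitm2 extends to 140959686, upstream of the printed stretch, so its position holds only for the start used here. The windows of Cmpk2 and Ifitm1 held none of these motifs. A match is a description of the sequence and not a measured binding site.

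Mx1 and Mx2 encode dynamin-like GTPases, which in mice act in the nucleus (Mx1) and the cytoplasm (Mx2), and lie on chromosome 16 (97447035 to 97462907 and 97535308 to 97560900 in GRCm38), pointing away from each other with 72.4 kb between their starts. Mx1 had 1210, 876 and 1104 counts in the knockout libraries and 23, 7 and 15 counts in the WT libraries. Its level was 31.2 ± 4.49 CPM in knockout and 0.431 ± 0.218 CPM in WT cells (SD, n = 3 each). It was 73.1-fold higher, a log2 fold change of 6.19 ± 0.29 (SE; adjusted p = 1.90e-07). All WT libraries were below 1 CPM, and all knockout libraries lay far above them.

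Mx2 had 2052, 1363 and 1533 counts in the knockout libraries and 61, 47 and 12 counts in the WT libraries. Its level was 48.4 ± 10.5 CPM in knockout and 1.05 ± 0.548 CPM in WT cells (SD, n = 3 each), 44.1-fold higher (adjusted p = 1.76e-06). WT replicate 3 was the lowest and the groups did not overlap. The ratio of Mx1 to Mx2 was 0.590, 0.643 and 0.721 in the knockout libraries, a narrow range, and 0.400, 0.188 and 1.22 in the WT libraries, a wide one at counts of 7 to 61. The log2 ratio differed between the groups by 0.53 (raw p = 0.7, adjusted over 4 pairs p = 0.7, exact permutation test, two-sided). With 3 libraries against 3 this test cannot go below 0.1. Without WT replicate 2 the difference was -0.11. Of the distinct 75-base windows of Mx1 and Mx2 transcripts, a length taken because the read length is not given here, 1.71% and 2.01% were identical between these genes.

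Rsad2 encodes viperin, a radical SAM enzyme that turns CTP into a chain-terminating nucleotide, and Cmpk2 a mitochondrial kinase that makes the di- and triphosphates of such nucleotides. They are neighbours on chromosome 12 (26442746 to 26456452 and 26469204 to 26479837), transcribed away from each other with 12.8 kb between their starts. Rsad2 had 14680, 10981 and 12694 counts in the knockout libraries and 463, 384 and 173 counts in the WT libraries. Its level was 375 ± 51.4 CPM in knockout and 9.19 ± 2.59 CPM in WT cells (SD, n = 3 each), 40.5-fold higher (log2 fold change 5.34 ± 0.22 SE; adjusted p = 2.03e-07). All knockout libraries were high and the groups did not overlap.

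Cmpk2 had 3053, 2349 and 2558 counts in the knockout libraries and 113, 122 and 47 counts in the WT libraries, 77.9 ± 10.5 CPM in knockout and 2.54 ± 0.735 CPM in WT cells (SD, n = 3 each). It was 30.1-fold higher (adjusted p = 9.49e-08). For both genes knockout replicate 1 was the highest and WT replicate 3 the lowest library. The ratio of Rsad2 to Cmpk2 was 4.81, 4.67 and 4.96 in the knockout libraries, against 4.03, 3.11 and 3.59 in the WT libraries, so the groups did not overlap. The log2 ratio was higher by 0.43 in knockout cells (raw p = 0.1, the smallest that the exact permutation test allows, and adjusted p = 0.133). Neither gene shared a 75-base window with another gene's transcripts.

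Bst2 encodes tetherin, a membrane protein anchored at both ends, and lies on chromosome 8 (71534255 to 71537456). It had 19748, 18428 and 18840 counts in the knockout libraries and 2049, 1824 and 915 counts in the WT libraries. Its level was 558 ± 25.8 CPM in knockout and 43.6 ± 8.91 CPM in WT cells (SD, n = 3 each), 12.8-fold higher (log2 fold change 3.68 ± 0.16 SE; adjusted p = 9.41e-08). Its knockout libraries differed little among themselves, WT replicate 3 was again the lowest, and the groups did not overlap. In CPM per kilobase of exon (RPKM), Bst2 had the highest level of the 10 genes in knockout cells, 618 ± 28.5 RPKM, against 48.2 ± 9.87 RPKM in WT cells (SD, n = 3 each). Its promoter, shown above, holds overlapping response element cores.

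The 3 IFITM genes lie in a cluster on chromosome 7, with Ifitm2 at 140954837 to 140955987, Ifitm1 at 140967221 to 140969825 and Ifitm3 at 141009586 to 141010770. Ifitm3, the family's best-known restriction factor of influenza virus, had 9206, 10148 and 10119 counts in the knockout libraries and 1416, 1352 and 665 counts in the WT libraries. Its level was 289 ± 19.1 CPM in knockout and 31.3 ± 6.02 CPM in WT cells (SD, n = 3 each), 9.21-fold higher (log2 fold change 3.20 ± 0.15 SE; adjusted p = 1.52e-07). The knockout libraries all lay above the WT libraries, by the smallest fold of the 8 genes called.

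Ifitm2, a close relative that restricts viruses from late endosomes, had 2575, 2579 and 2388 counts in the knockout libraries and 4109, 3844 and 1990 counts in the WT libraries. In CPM these were 75.9, 78.6 and 67.3 in the knockout libraries, against 101, 98.7 and 72.8 in the WT libraries. The groups overlapped only through WT replicate 3. The log2 fold change was -0.30 ± 0.13 (SE), which did not pass (adjusted p = 0.0739). Over the alternative settings it was -0.42 to -0.21, and the adjusted p was 0.000963 without WT replicate 3, which makes it a call of lower. Of the distinct 75-base windows of its transcript, 42.0% were also found in transcripts of other genes, Gm45717 (which overlaps it on the same strand) and pseudogenes among them, while Ifitm3 shared 0.662%. With windows of 50 bases Ifitm2 shared 48.5% and Ifitm3 10.0%, and with windows of 100 bases 34.9% and 0%. A count of Ifitm2 is therefore less certain than one of Ifitm3 at each of these lengths. Of the genes that share windows, Gm11951 had 2 to 12 counts per library, and Gm7676, which shares with Ifitm3, had 0 to 6. Gm45717, Gm2840, Gm45308, Gm45432 and Gm8865 were not among the genes counted.

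Ifitm1 had 4, 3 and 8 counts in the knockout libraries and 17, 6 and 5 counts in the WT libraries. These were too few for the test, and the groups overlapped. Fitted with no filter on low counts, its log2 fold change was -0.77 ± 0.74 (SE; adjusted p = 0.428 in edgeR), so a difference was not detectable at this depth. In mice, Ifitm1 and Ifitm3 are also known from primordial germ cells, of whose markers Dppa3 is not in the table and Dazl, Ddx4 and Nanos3 each stayed below 1 CPM on average in both groups.

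The balance within the family differed between the groups of libraries. The ratio of Ifitm2 to Ifitm3 counts was 0.280, 0.254 and 0.236 in the knockout libraries and 2.90, 2.84 and 2.99 in the WT libraries. The groups stood far apart compared with their own spread, and the log2 ratio differed by -3.51 (raw p = 0.1, the smallest the exact permutation test allows, adjusted p = 0.133). For Ifitm1 and Ifitm3 the log2 ratio differed by -3.79 (raw p = 0.1, exact permutation test, adjusted p = 0.133), at the low counts of Ifitm1. Per length, Ifitm3 made up 79.0% ± 1.41 of the summed level of the 3 genes in knockout cells, and 24.9% ± 0.485 in WT cells (SD, n = 3 each). The summed level itself was 539 ± 32.6 RPKM in knockout and 185 ± 32.8 RPKM in WT cells (SD, n = 3 each).

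**Figure D2:**
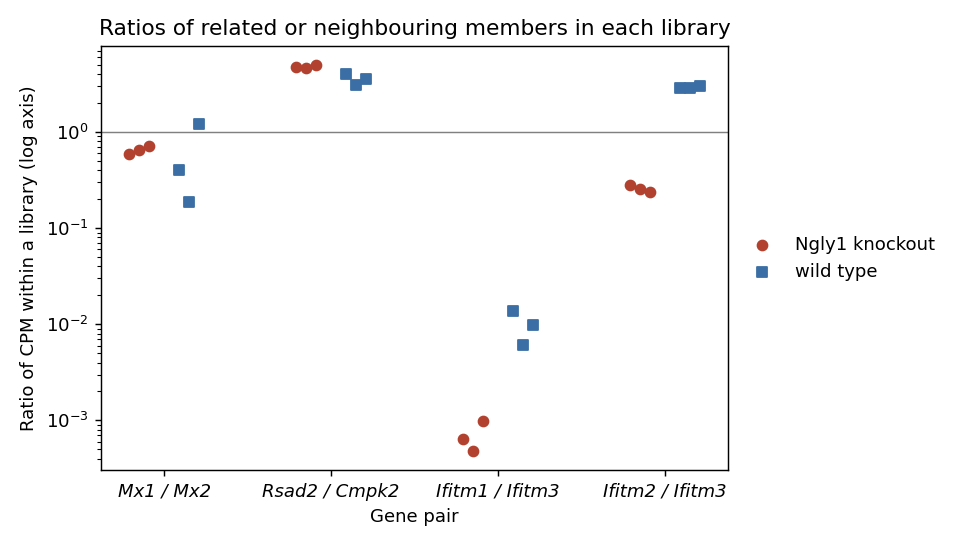
Ratio of CPM between 2 members within each library on a log axis, with knockout libraries as circles and WT libraries as squares, and a line at equal levels. The ratio of Ifitm2 to Ifitm3 lies below 1 in the knockout and above 1 in the WT libraries, while the ratio of Mx1 to Mx2 in WT libraries spans that of the knockout libraries.

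Ifi44 encodes a cytoplasmic interferon-induced protein whose overproduction slows cell growth and dampens antiviral signalling in cultured human cells, and lies on chromosome 3 (151730922 to 151749960). It had 10696, 9640 and 10198 counts in the knockout libraries and 47, 32 and 13 counts in the WT libraries, 351-fold higher (log2 fold change 8.45 ± 0.22 SE; adjusted p = 8.14e-09). This was the largest fold of the 10 genes and rank 14 among the higher genes of all 15039 tested. No library of one group came near those of the other, and none of its 75-base windows was shared with another gene. Its relative Ifi44l is not in the table.

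Xaf1 encodes a protein that binds and opposes the caspase inhibitor XIAP, and lies on chromosome 11 (72301629 to 72313733). It had 3450, 3050 and 3124 counts in the knockout libraries and 128, 100 and 68 counts in the WT libraries, 34.2-fold higher (log2 fold change 5.10 ± 0.13 SE; adjusted p = 6.22e-09). It had the smallest standard error of the 8 genes called and the smallest p of the 10. Xiap, its binding partner, was lower, at 123 CPM in knockout and 182 CPM in WT cells (log2 fold change -0.56 ± 0.09 SE; adjusted p = 0.000382).

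**Figure D3:**
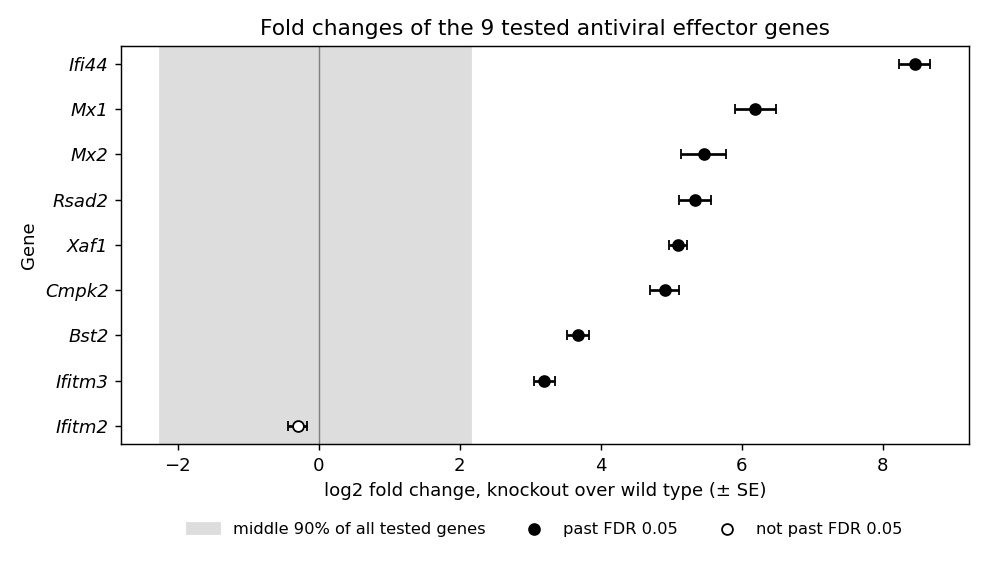
Log2 fold change of knockout over WT cells with its standard error for the 9 tested genes, filled where past a false discovery rate of 0.05. The grey band spans the 5th to 95th percentile of all tested genes, -2.25 to 2.15, and only Ifitm2 lies within it.

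Ordered by level per length, the knockout cells ran from Bst2 (618 RPKM) through Ifitm3 (426), Ifitm2 (113), Rsad2 (86.5), Ifi44 (48.8), Xaf1 (20.1), Cmpk2 (18.7), Mx2 (13.4) and Mx1 (8.23) to Ifitm1 (0.133 RPKM). Of these neighbours, only Xaf1 and Cmpk2 overlapped between libraries. In WT cells the order ran from Ifitm2 (139 RPKM) through Bst2 (48.2), Ifitm3 (46.1), Rsad2 (2.12), Cmpk2 (0.611), Xaf1 (0.583), Mx2 (0.290), Ifitm1 (0.230) and Ifi44 (0.133) to Mx1 (0.114 RPKM). There Bst2 and Ifitm3, Cmpk2 and Xaf1, and each neighbouring pair from Mx2 down overlapped. The 9 tested genes spanned a 75.1-fold range of levels in knockout cells and a 1217-fold range in WT cells. Ifi44 moved most in order, with rank 5 in knockout and rank 9 in WT cells.

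Genes that carry the interferon signal were taken as a companion list of 13 genes, all of them tested. Of these, 8 were higher and 2 lower, against 30.7% and 30.2% of all tested genes, with a median log2 fold change of 0.47. Irf7, Usp18, Irf5 and Irf9 rose most. Irf7, the amplifier of interferon production, averaged 130 CPM in knockout and 1.61 CPM in WT cells (log2 fold change 6.27 ± 0.28 SE; adjusted p = 3.91e-07). Irf9 averaged 195 CPM in knockout and 17.9 CPM in WT cells, and Stat2 averaged 156 CPM in knockout and 37.1 CPM in WT cells, both past the threshold. Usp18, which removes ISG15 and damps receptor signalling, averaged 223 CPM in knockout and 3.95 CPM in WT cells (5.79 ± 0.30 SE on the log2 scale).

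Values of the receptor and kinase genes lay closer to 0. Ifnar1, a receptor chain, averaged 79.1 CPM in knockout and 97.4 CPM in WT cells (log2 fold change -0.30; adjusted p = 0.0237). That call was lost when knockout replicate 2, knockout replicate 3, WT replicate 1 or WT replicate 2 was left out (adjusted p = 0.108, 0.0822, 0.0692 and 0.125), so that 1 gene of the list remained lower. This was Tyk2, which averaged 19.7 CPM in knockout and 32.6 CPM in WT cells (log2 fold change -0.73; adjusted p = 0.00153). Ifnar2, the other receptor chain, had a log2 change of 0.26 (adjusted p = 0.0769), and Jak1 one of 0.35 (adjusted p = 0.0055). Socs1, a feedback inhibitor, had a log2 change of 0.47 (adjusted p = 0.328), and passed without WT replicate 3 at 1.15 (adjusted p = 7.57e-05).

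**Figure D4:**
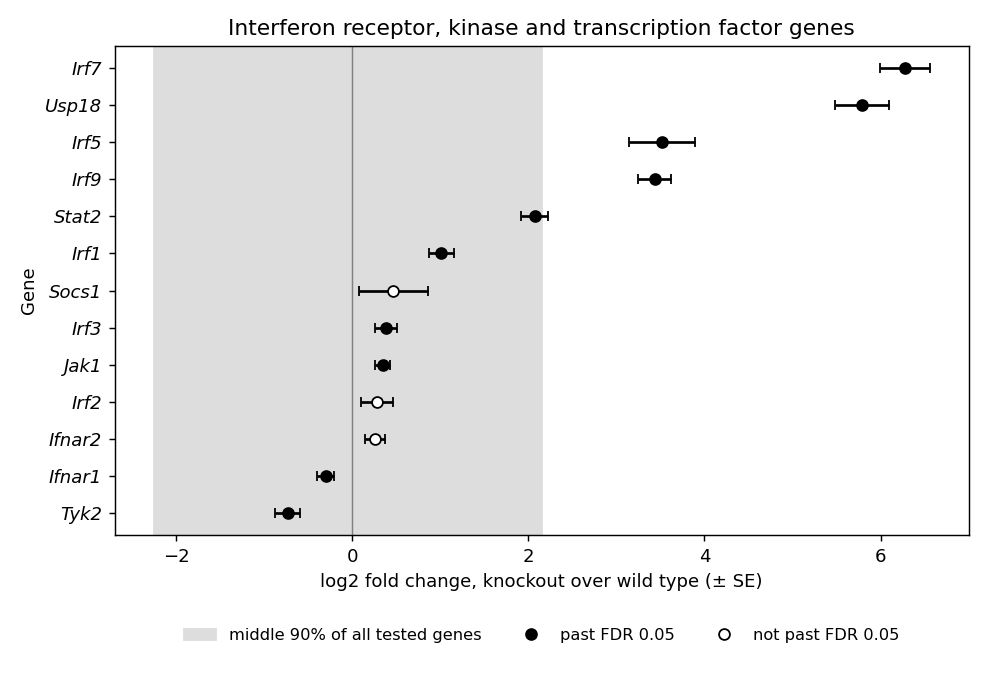
Log2 fold change of knockout over WT cells with its standard error for 13 interferon signalling genes, filled where past a false discovery rate of 0.05, with the middle 90% of all tested genes in grey. Irf7, Usp18, Irf5 and Irf9 lie above the band, while the receptor and kinase genes lie near 0.

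Relatives of the effectors by protein or enzyme family were higher for 4 and lower for 6 of 16 tested, out of 24 listed, against 30.7% and 30.2% of all tested genes. Their median log2 fold change was -0.19. Among dynamin genes, relatives of the Mx genes, Dnm2 had a log2 change of -0.46 and Dnm1 one of -0.57, both past the threshold, and Dnm1l one of 0.10 (adjusted p = 0.355). Rsad1 and Cdk5rap1, other radical SAM enzyme genes, had log2 fold changes of 1.11 and 1.21, past the threshold. Lias, for lipoyl synthase of the same enzyme class, had one of 0.83 and Dtymk, for thymidylate kinase, one of 0.71, both past the threshold. Cmpk1, the cytosolic counterpart of Cmpk2, averaged 51.4 CPM in knockout and 50.1 CPM in WT cells (log2 change 0.04; adjusted p = 0.761). Of other IFITM genes, Ifitm6 had 7, 11 and 2 counts in the knockout libraries and 4, 0 and 0 counts in the WT libraries, below the filter. Ifitm5 had a log2 change of -0.77 (adjusted p = 0.266).

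Genes for proteins that modify or bind the effectors were higher for 4 and lower for 7 of 14, against 30.7% and 30.2% of all tested genes, with 2 higher when libraries were scaled by their totals only. Nedd4, a ubiquitin ligase that marks IFITM3 for breakdown, averaged 769 CPM in knockout and 1737 CPM in WT cells (log2 fold change -1.18 ± 0.12 SE; adjusted p = 2.05e-05). Zdhhc20, which palmitoylates IFITM3, and Setd7, which methylates it, had log2 fold changes of -0.48 and -0.38, both past the threshold. Vapa, also of this list, went the other way, with a log2 fold change of 0.43 (adjusted p = 0.00437). Birc2, a relative of Xiap, and Irak1, a kinase of Toll-like receptor signalling, had log2 fold changes of -0.84 and -0.64, both past the threshold. Birc3, another relative of Xiap, was higher, with a log2 fold change of 0.45 (adjusted p = 0.0149). That call was lost with scaling by library totals only and without knockout replicate 1. Ciapin1, of the cytosolic iron-sulfur machinery, averaged 79.6 CPM in knockout and 37.8 CPM in WT cells (adjusted p = 1.68e-05). Zmpste24, a membrane protease that works with IFITM proteins, had a log2 change of -0.17 (adjusted p = 0.156).

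The genes around the effectors were examined next. Taking the 3 nearest tested genes on each side gave 36 genes, of which 8 were higher and 15 lower, against 30.7% and 30.2% of all tested genes, with a median log2 fold change of -0.26. Not all of them are close, by the distance between gene midpoints. Mvb12a lies 9.6 kb from Bst2, but Dscam lies 576 kb from Mx1, LOC328066 1036 kb and Dcdc2c 2046 kb from Rsad2, and Gm30827 2733 kb from Ifi44. Only Dscam, 1 of the 36, had a log2 fold change above 3, with 206 counts over the knockout libraries and 1 count over the WT libraries. Ifitm3, at 3.20, ranked 446 from the top of all 15039 tested genes, so 1 such gene in 36 is near the share over all genes. In the other direction LOC328066, Ripk4, Pkp3 and Gm36496 had log2 fold changes of -6.96, -4.50, -4.01 and -3.22. Dscam is the nearest tested gene on the Mx1 side, while Ripk4, the nearest on the Mx2 side, averaged 0.158 CPM in knockout and 3.65 CPM in WT cells. The tested genes of chromosome 16 had a median log2 fold change of -0.37. The tested genes nearest to the pair of Rsad2 and Cmpk2 were LOC328066, with 1 count over the knockout and 178 counts over the WT libraries, and Dcdc2c, which had a log2 change of -1.79 (adjusted p = 0.00255). Those nearest to the IFITM cluster were Ifitm5, given above, and B4galnt4, which averaged 12.8 CPM in knockout and 3.62 CPM in WT cells (adjusted p = 5.24e-05). On the sides of Bst2, Mvb12a had a log2 change of 0.49 (adjusted p = 0.00533) and C430049E01Rik one of -0.86 (adjusted p = 0.254). On the sides of Ifi44, Ptgfr had a log2 change of -0.75 (adjusted p = 0.156) and Gm30827 one of -0.88 (adjusted p = 0.0269). On the sides of Xaf1, 4930563E22Rik had a log2 change of -0.19 (adjusted p = 0.568) and Smtnl2 one of 1.01 (adjusted p = 0.0831).

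**Figure D5:**
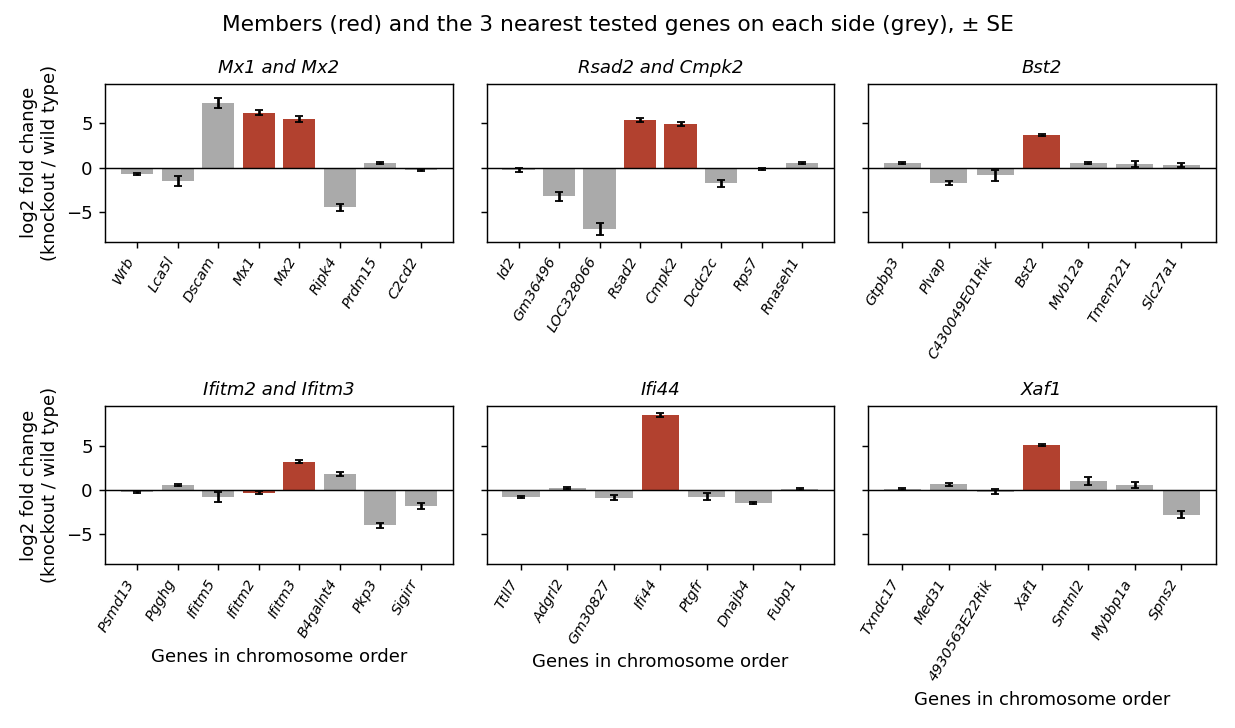
Log2 fold change of knockout over WT cells with its standard error for the effector genes (red) and the 3 nearest tested genes on each side (grey), in chromosome order, for 6 loci. Of the 36 grey genes, only Dscam reaches the height of the effectors called higher. LOC328066 (-6.96), Ripk4 (-4.50), Pkp3 (-4.01) and Gm36496 (-3.22) lie far down. The fitted values of Dscam and LOC328066 rest on 1 count in a whole group.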

How the data were processed

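The authors deposited raw counts, whole numbers per gene in 6 libraries, per the file headers. A stranded total RNA kit was used, per the labels' protocols. The submitters' processing notes name STAR 2.5.1b and mm10. How reads were assigned to genes, and with which strand setting, is not given in the sources used here. Each column was tied to its sample by group name and replicate number.

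Genes kept by filterByExpr were scaled by TMM. A robust quasi-likelihood model of genotype was fitted in edgeR 4.0.16 (R 4.3.3) and tested two-sided, with Benjamini-Hochberg adjustment over 15039 genes. An SE is the absolute log2 fold change divided by the square root of F. CPM used TMM-scaled library sizes, and RPKM the union of GENCODE M21 exons (GRCm38, the assembly behind mm10), which may differ from the authors' gene models. Ratios of pairs used a prior count of 2. Pearson correlation of log2 CPM across genes, which are not replicates, was 0.979 to 0.994 within and 0.886 to 0.897 between groups, and libraries of a group differed beyond sampling noise (chi-square per gene of 12.2 to 147). On simulated data made from the means of knockout and WT libraries (14855 genes, 200 changed), edgeR recovered 28.4% of 1.5-fold, 97.0% of 2-fold and 100% of 4-fold changes, with 1 false call among 151. The changed genes were drawn only from well-counted genes, and all genes had the same dispersion. These rates therefore need not hold for low-count genes, or where far more genes differ, as in these data.

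The members and lists were chosen with earlier results of these data known. Named were all members, 5 genes by p of the interferon signalling, relative and partner lists (Irf9, Irf7 and Usp18 included), and the nearest tested neighbour on each side. Ifnar1, Ifnar2, Jak1, Tyk2, Socs1, Dnm1, Dnm1l, Cmpk1, Ifitm6, Ifi44l, Zdhhc20, Setd7, Zmpste24 and the single cell type markers were chosen after their values were seen. So were Pkp3 and Gm36496, for their large negative values. One gene of the interferon signalling list is not reported here and was left out of its counts.

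Alternatives were size factors of DESeq2 1.42.0, scaling by library totals, other low-count filters (none, or 1 CPM in 3 libraries), a replicate block, DESeq2's own test, limma-voom (limma 3.58.1), leaving out each library, leaving out both libraries numbered 3, and leaving out structural RNA genes.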

Additional observations from a re-analysis of the deposited data

How the results depend on the processing

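Under all 15 alternatives 8 of the 10 genes were called higher, and the median log2 fold change of the tested members was 4.98 to 5.22. Over these settings the log2 fold change was 8.25 to 8.79 for Ifi44, 5.81 to 6.51 for Mx1 and 3.07 to 3.30 for Ifitm3. The number called lower went from 0 to 1, which was Ifitm2, scaled by library totals only (adjusted p = 0.0307), with at least 1 CPM in 3 libraries (0.0489), with a replicate block (0.0300) and without both libraries numbered 3 (0.00499), and was 0 to 1 with single libraries left out. The cause was not tested. Scaling by library totals moved the median over all genes from -0.04 to -0.16 on the log2 scale and left 2 interaction partners called higher. Interferon signalling genes called lower were 1 to 2 with single libraries left out. The difference in the log2 ratio of Mx1 to Mx2 was -0.11 to 1.24 with single libraries left out, and -0.11 without WT replicate 2. Replicate numbers were not taken as pairs in the main fit. Deviations from the group means of same-numbered libraries correlated by 0.0961, 0.0138 and 0.209. For differently numbered libraries the correlations were -0.176 to 0.149, so these values do not settle whether the numbers mark pairs. With the replicate block 4690 genes were called higher and 4563 lower, against 4621 and 4539 without it, and the ratio of Ifitm2 to Ifitm3 differed by -3.51 (p = 0.25, the smallest that 3 pairs allow in an exact permutation test). Depth limits Ifitm1, with 15 counts over the knockout and 28 over the WT libraries, and the WT values of Mx1.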
